A study of Homo sapiens with 4 samples.

Results

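The interferon-induced transmembrane (IFITM) genes encode small membrane proteins, and 4 of them, IFITM1, IFITM2, IFITM3 and IFITM10, were followed in RNA-seq libraries of MHCC97H cells, an established human hepatocellular carcinoma (HCC) line. The 4 genes are listed by name among the 61541 genes of the deposited count table. IFITM10 was chosen by its counts, which were far higher in shUBXN1 than in shCon cells, so its values are a description and carry no p-value, while IFITM1, IFITM2 and IFITM3 were listed as its relatives. All 4 passed the filter on low counts, which left 16863 genes.

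The libraries came from MHCC97H cells carrying a control short hairpin RNA (shCon, 2 libraries) or a hairpin against UBXN1 (shUBXN1, 2 libraries). By the methods, hairpins were cloned into pLKO.1, a lentiviral vector, and the control is called shRFP there. The labels do not say which UBXN1 hairpin was sequenced, so the effect of 1 hairpin and that of lower UBXN1 cannot be told apart. Nothing says that replicates were grown from separate cultures, so p-values measure only the spread between these libraries, which may be technical. The label liver refers to the origin of the line.

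UBXN1, a UBX domain protein that binds the ATPase p97 (VCP), was counted 1788 and 1817 times in shCon and 416 and 433 times in shUBXN1. Its log2 fold change was -2.03 (SE 0.0963, adjusted p = 9.98e-10 by edgeR's quasi-likelihood test), and its groups did not overlap. Libraries held 23373700 to 27380508 expected counts. Counts on the mitochondrial genome made up 5.28% and 5.59% of shCon and 7.43% and 8.27% of shUBXN1, and whether this share has a part in the values below was not tested. Of 11 hepatocyte and HCC markers, 9 had more than 3 counts in every library, and their summed level in CPM (counts scaled to library size) went from 4460 and 4616 in shCon libraries to 3472 and 4062 in shUBXN1 libraries, most of it KRT8 (2329 to 3467 CPM). The plasma protein genes ALB (18.0 and 17.2 against 4.20 and 4.78 CPM), TF (102.8 and 92.4 against 25.6 and 24.4 CPM) and APOB were lower in shUBXN1 libraries, KRT18 and SERPINA1 were higher, and GPC3, a common HCC antigen, was listed at 0 throughout. Leukocyte markers summed to 71.5 to 89.7 CPM, nearly all of it CD68, with CD3E at 0, and fibroblast markers to at most 3.15 CPM. Endothelial markers, of which 3 of 4 exceeded 3 counts in every library, summed to 48.4 and 49.9 CPM in shCon and 92.6 and 99.5 CPM in shUBXN1, of which KDR made up 14.6 and 15.8 against 48.2 and 56.6 CPM. CDH5 had 3 and 6 counts against 0 and 0. The part of these markers in the results was not tested.

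IFITM1, IFITM2 and IFITM3 are classical interferon-stimulated genes. When interferon binds its receptor, Janus kinases phosphorylate STAT proteins, which, with IRF9, bind a DNA element called the ISRE and switch such genes on. The proteins sit in the plasma membrane or in endosomes and hinder the fusion of enveloped viruses with the cell membrane. IFITM1 is found mostly at the cell surface, whereas IFITM2 and IFITM3 have a longer N-terminal end that carries an endocytosis signal and act mainly in endosomes. IFITM10 is a more distant relative whose function is less well known.

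The genes lie in 2 places on chromosome 11 (GRCh38 coordinates, GENCODE v44). IFITM2 (ENSG00000185201, 303655 to 309397, plus strand), IFITM1 (ENSG00000185885, 310041 to 315272, plus strand) and IFITM3 (ENSG00000142089, 319676 to 329475, minus strand) are next to each other, each with 2 exons in its canonical transcript. IFITM10 (ENSG00000244242, 1732406 to 1750595, minus strand) lies apart and has 3. The coding sequences of IFITM2 and IFITM3 were 93.2% identical, those of IFITM1 and IFITM3 67.1%, and that of IFITM10 36.3% to 39.7% identical to the other members. Identity was counted over all columns of each alignment, gaps included. IFITM10 has 684 coding bases against 375 to 399 in the others, so its low values include this difference in length. The first 120 coding bases of the clustered genes are printed because this stretch sets IFITM1 apart from the other two and because it holds bases by which reads of IFITM2 and IFITM3 can be told from each other. Capitals mark bases that differ between IFITM2 and IFITM3 in their alignment, 10 in IFITM2 and 13 in IFITM3.
IFITM1: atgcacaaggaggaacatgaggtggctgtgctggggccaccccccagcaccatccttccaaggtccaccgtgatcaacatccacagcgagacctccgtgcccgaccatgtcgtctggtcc
IFITM2: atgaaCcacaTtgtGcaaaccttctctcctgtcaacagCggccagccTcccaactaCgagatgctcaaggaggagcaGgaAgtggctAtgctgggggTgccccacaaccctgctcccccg
IFITM3: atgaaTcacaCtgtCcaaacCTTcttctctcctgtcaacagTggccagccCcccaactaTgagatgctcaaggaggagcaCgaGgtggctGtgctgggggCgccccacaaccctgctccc

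Promoter sequence was at hand for IFITM1 and IFITM3 in the RefSeq promoter table (GRCh38.p14) and is printed because it shows the interferon element of both genes beside the start site. The windows are chr11:313930-314049 on the plus strand and chr11:320851-320970 on the minus strand, each 120 bases long and read in the direction of the gene, ending 10 bases after the start. Capitals mark matches to GAAANNGAAA, the core of the ISRE, searched on both strands of 300 bases around each start.
IFITM1 promoter: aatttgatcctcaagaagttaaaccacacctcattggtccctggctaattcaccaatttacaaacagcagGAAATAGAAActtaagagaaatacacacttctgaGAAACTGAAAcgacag
IFITM3 promoter: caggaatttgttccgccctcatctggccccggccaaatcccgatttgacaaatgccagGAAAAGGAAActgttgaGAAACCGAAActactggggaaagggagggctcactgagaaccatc

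Each of these promoters held 2 matches, at -40 and -6 in IFITM1 and at -52 and -35 in IFITM3, counted from the first base of the match with the start at +1. All 4 matches were followed by a C. The core was present in 1255 of 35116 promoters (3.57%), and the longer form GAAANNGAAAC in 279 (0.795%). The STAT dimer element TTCNNNGAA, present in 7.66% of promoters, matched IFITM1 once at -12, overlapping the ISRE core at -6, and did not match IFITM3. A match is a description of the letters and not of binding.

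IFITM1, IFITM2 and IFITM3 were all higher in shUBXN1 than in shCon cells, by 2.51-fold, 1.87-fold and 1.68-fold, and IFITM10 stood 7.89-fold higher. At an adjusted p under 0.05, 28.0% of all genes tested were higher and 28.2% were lower, so a call in one direction was common in these libraries. At a 2-fold change and an unadjusted p under 0.05, the thresholds of the study's methods, 11.8% of genes were higher and 6.09% were lower. IFITM1 passed these thresholds, whereas IFITM2 and IFITM3 passed the adjusted p but stayed under 2-fold. Without shCon replicate 2, IFITM2 had a log2 fold change of 1.14 (adjusted p = 1.35e-06, edgeR), which is above 2-fold. The median log2 fold change of the 4 members was 1.12 beside 0.02 over all genes tested, a comparison to which the choice of IFITM10 contributes.

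IFITM1, the surface member, was counted 115.47 and 110.84 times in shCon and 313.35 and 235.48 times in shUBXN1. These were 4.33 and 4.72 CPM against 12.7 and 10.1 CPM. Both shUBXN1 libraries lay above both shCon libraries, as they did for 39.4% of genes tested (38.6% had both below), and the 2 shUBXN1 libraries differed more from each other than the shCon pair. The log2 fold change was 1.33 (SE 0.174, adjusted p = 1.62e-05, edgeR).

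IFITM2 was counted 145.1 and 178.5 times in shCon and 283.3 and 299.93 times in shUBXN1, or 5.44 and 7.60 CPM against 11.4 and 12.8 CPM. Here the shCon pair was the more spread, and the groups did not overlap. The log2 fold change was 0.90 (SE 0.171, adjusted p = 0.000444, edgeR).

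IFITM3, the member with the best documented role against influenza virus, had by far the highest counts of the clustered genes, with 1747.93 and 1659.64 in shCon and 2709.81 and 2805.34 in shUBXN1. In CPM it rose from 65.6 and 70.6 to 109 and 120. The groups did not overlap and the replicates lay close together. The log2 fold change was 0.75 (SE 0.0785, adjusted p = 1.78e-06, edgeR), the smallest change of the 4 genes with the smallest error.

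IFITM10 was counted 236.23 and 193.78 times in shCon and 1714.25 and 1545.59 times in shUBXN1, or 8.86 and 8.25 CPM against 69.3 and 66.0 CPM. Both shUBXN1 values stood far above both shCon values. The fitted log2 fold change was 2.98 (SE 0.0949), which placed it at rank 244 of the 16863 genes tested in descending order, between SMARCD3 (2.98) and SPRED3 (2.98). IFITM1 ranked 1437, IFITM2 2422 and IFITM3 2964 in the same order. In the plot of CPM by library, the pairs of points of each gene are separated by a gap that is widest for IFITM10.

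**Figure D1:**
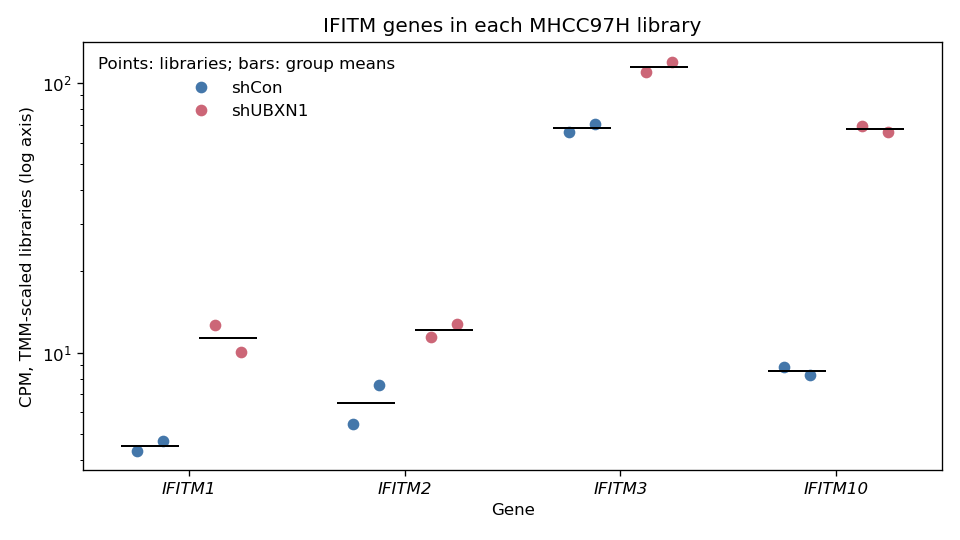
CPM of IFITM1, IFITM2, IFITM3 and IFITM10 in each library on a log axis, with points for the libraries (2 shCon, 2 shUBXN1) and black bars for group means. The shUBXN1 points lie above the shCon points for every gene, with IFITM10 going from 8.86 and 8.25 to 69.3 and 66.0 CPM.

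Levels of different genes were compared per length, as TPM (counts divided by gene length and scaled to the same total in each library), computed with the gene lengths in the deposited table (662, 660, 587 and 3714 bases for IFITM1, IFITM2, IFITM3 and IFITM10). In shCon the order was IFITM3 (227 and 238 TPM), IFITM2 (16.8 and 22.7 TPM), IFITM1 (13.3 and 14.1 TPM) and IFITM10 (4.86 and 4.39 TPM). In shUBXN1, IFITM3 stood at 404 and 411 TPM and the other members came close together, with IFITM10 at 40.4 and 35.8 TPM, IFITM2 at 37.6 and 39.1 TPM and IFITM1 at 41.5 and 30.6 TPM. The order of these 3 genes differed between the 2 shUBXN1 libraries, so their levels there cannot be ranked beyond the spread of replicates. By mean TPM among all genes tested, IFITM3 moved from rank 621 to rank 302, IFITM2 from 6387 to 3985, IFITM1 from 7701 to 4220 and IFITM10 from 10845 to 4001.

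Summed over the 4 genes, IFITM RNA was 262 and 279 TPM in shCon and 524 and 516 TPM in shUBXN1. IFITM3 made up 86.7% and 85.2% of it in shCon and 77.2% and 79.6% in shUBXN1. The share of IFITM10 was 1.85% and 1.57% in shCon and 7.72% and 6.93% in shUBXN1. IFITM1 took 5.08% and 5.05% against 7.91% and 5.92%, and IFITM2 6.40% and 8.15% against 7.18% and 7.57%, the last with overlapping groups. IFITM3 exceeded IFITM10 in TPM by 46.8 and 54.2 times in shCon and by at most 11.5 times in shUBXN1. The sum and shares leave out ENSG00000250644, an annotation that shares exons with IFITM10 and is described below. It stood at 80.5 and 78.7 TPM in shCon and 319 and 306 TPM in shUBXN1. How reads were divided between it and IFITM10 is not known, and the share of IFITM10 depends on that. With 2 libraries against 2, an exact two-sided permutation test of a share cannot go below p = 0.33, so the shares were not tested. IFITM3 remained the main IFITM transcript in each library, as the stacked bars show.

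**Figure D2:**
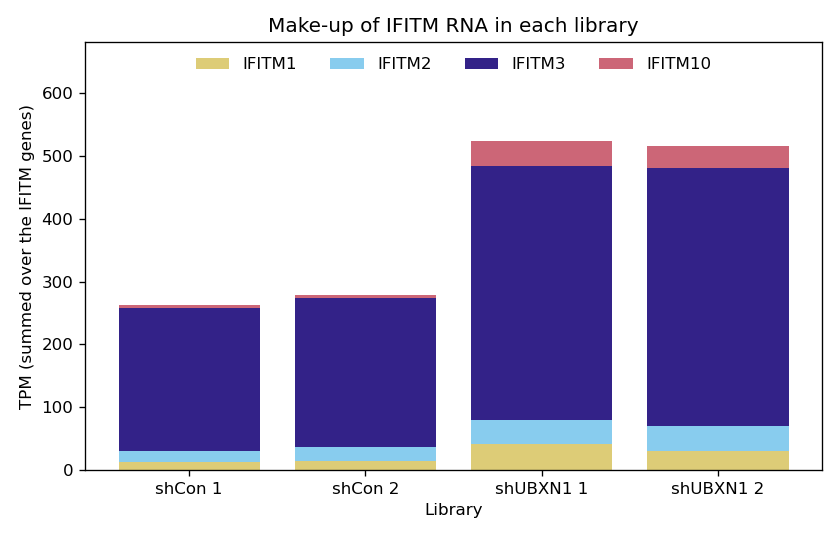
Stacked bars of TPM for IFITM1, IFITM2, IFITM3 and IFITM10 in each of the 4 libraries. The summed level is 262 and 279 TPM in shCon and 524 and 516 TPM in shUBXN1, IFITM3 is the largest segment in each bar, and the IFITM10 segment is thicker in both shUBXN1 bars.

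Reads of IFITM10 cannot be separated fully from those of a neighbouring annotation. Upstream of IFITM10 on the same strand lies CTSD, which encodes the lysosomal protease cathepsin D, and the gene ENSG00000250644 (1734821 to 1763954) is a read-through annotation that joins CTSD exons to IFITM10 exons. It shares 1062 exon bases with IFITM10, 22.2% of the exon bases of that gene, and 1304 with CTSD. Of all 100-base windows of the canonical IFITM10 transcript, 26.7% occurred in ENSG00000250644 and in no other gene. The junction of exon 8 and exon 9 of its canonical transcript is printed because a read across it would show a joined CTSD and IFITM10 transcript. Exon 8 (1753803 to 1753901) lies on the CTSD side, exon 9 (1747667 to 1748119) on the IFITM10 side, and capitals mark the 30 bases from the IFITM10 side.
ENSG00000250644 junction: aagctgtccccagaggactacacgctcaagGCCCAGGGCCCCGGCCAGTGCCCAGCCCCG

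ENSG00000250644 had 4259.52 and 3781.12 counts in shCon and 14703.04 and 14371.44 in shUBXN1, a fitted log2 fold change of 1.91. No p-value is given for it, since it shares exons with the gene picked for its rise. CTSD itself had 24168.15 and 22172.83 counts in shCon and 24485.26 and 25859.02 in shUBXN1, a log2 fold change of 0.18 that did not pass the test (SE 0.0860, adjusted p = 0.0917, edgeR). In CPM both shUBXN1 libraries (989 and 1105) lay above both shCon libraries (906 and 944), as for 39.4% of genes tested. The read-through annotation therefore held many more counts than IFITM10 in every library, and IFITM10 stood at 5.55% and 5.12% of its count in shCon and at 11.7% and 10.8% in shUBXN1. Of the counts of the 3 genes together, CTSD took 84.3% and 84.8% in shCon and 59.9% and 61.9% in shUBXN1. The share of the read-through annotation was 14.9% and 14.5% against 35.9% and 34.4%, and that of IFITM10 0.824% and 0.741% against 4.19% and 3.70%. Their summed level was 1075 and 1113 CPM in shCon and 1653 and 1784 CPM in shUBXN1.

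Counted together with the read-through annotation, IFITM10 had a log2 fold change of 1.99, and with CTSD added as well 0.65. Both sums were chosen after the values were seen. Of the values above 0, 62.4% to 64.6% were exactly whole numbers in each library, so the table holds estimated counts. How reads that fit several genes were assigned is not given in the sources used here, and the table holds no junction counts.

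**Figure D3:**
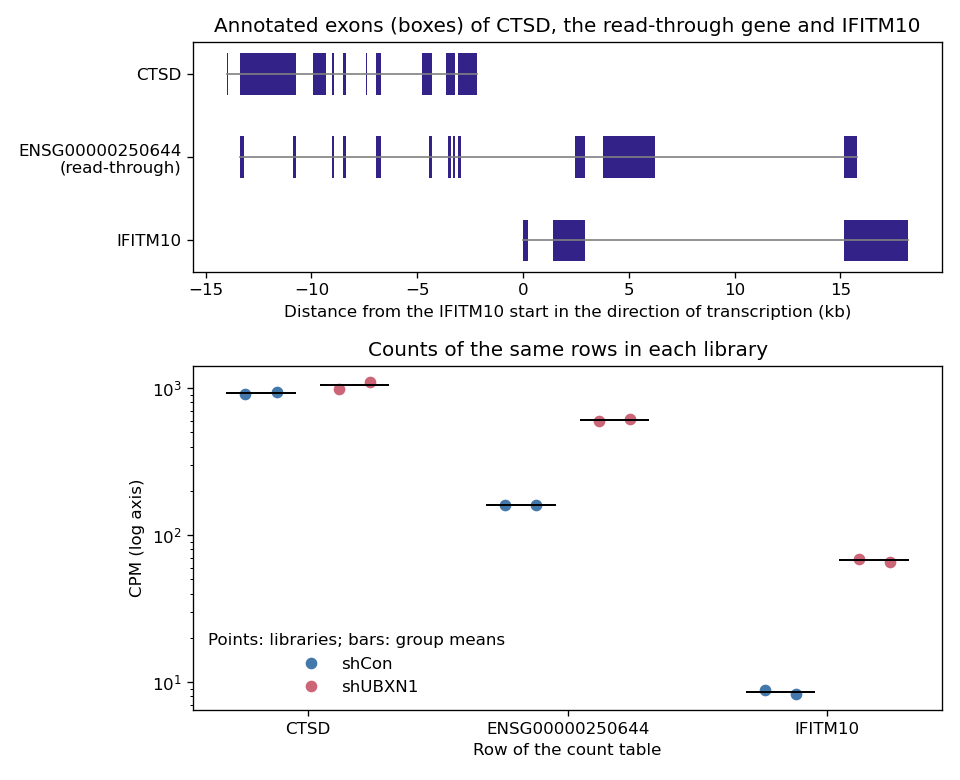
Top, annotated exons (boxes) of CTSD, the read-through gene ENSG00000250644 and IFITM10, plotted as distance in kb from the IFITM10 start in the direction of transcription. Bottom, CPM of the same 3 genes per library on a log axis, with points for libraries and black bars for group means. All 3 stand higher in shUBXN1, CTSD by the least (906 and 944 against 989 and 1105 CPM).

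The clustered genes share sequence too. Of 100-base windows of the canonical transcripts, 50.1% of IFITM1, 2.09% of IFITM2 and 8.20% of IFITM3 occurred in another annotated gene. For IFITM1 this was mainly ENSG00000288681, a read-through annotation from IFITM2 to IFITM1, which was listed at 0 in all 4 libraries. With 50-base windows the shares were 55.1%, 12.0% and 20.8%, and the read length is not used here. The lncRNA gene ENSG00000254910 lies antisense to IFITM1 and shares 176 exon bases with it. It had 6.98 and 14.01 counts in shCon and 36.49 and 38.25 in shUBXN1 (log2 fold change 1.85, SE 0.494). Its shCon libraries alone would not have passed the filter on low counts, so its call as higher is not read as a result. Since the counting is not stated to use strand, reads within the shared bases cannot be assigned to it or to IFITM1. The genes antisense to IFITM3, ENSG00000255328 and ENSG00000255089, had at most 4.52 counts in any library, beside at least 1659.64 counts of IFITM3.

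Of 13 other IFITM genes and pseudogenes in the table, only IFITM3P2, an IFITM3 pseudogene, passed the filter. It had 106.7 and 112.34 counts in shCon and 104.97 and 100.77 in shUBXN1, a log2 fold change of -0.04 (adjusted p = 0.906, edgeR). IFITM5, a bone-specific member whose gene lies beside the cluster, had 0 and 0 counts in shCon and 5 and 1 in shUBXN1. IFITM3P1, IFITM3P5, IFITM3P6 and IFITM4P reached at most 3 counts in any library and the others were listed at 0.

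The interferon pathway that drives IFITM1, IFITM2 and IFITM3 in other settings was followed from ligand to target with lists drawn up by hand. Of 22 interferon ligand genes, none passed the filter. IFNE had 2 and 9 counts in shCon and 10 and 6 in shUBXN1, IFNA1 had 3 counts and IFNB1 1 count in a single shCon library, and the rest were listed at 0. Apart from IFNE, which exceeded it in 3 of 4 libraries, no ligand gene exceeded the limit that a count of 0 allows, 3 counts or 0.112 to 0.128 CPM.

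Of 25 genes for interferon receptors and JAK-STAT signalling, 24 were tested, of which 12 were higher, 7 were lower and 5 did not pass, beside the 28.0% and 28.2% of all genes. The median log2 fold change was 0.22. Among receptors, IFNGR2 rose (0.47 on the log2 scale, adjusted p = 0.000105) while IFNGR1, its partner in the receptor for interferon gamma, fell (-0.58, adjusted p = 5.49e-05), both by edgeR. The type I receptor subunit IFNAR1 fell (-0.33, adjusted p = 0.00411, edgeR), and IFNAR2 had a value of -0.0047 (adjusted p = 0.978). The lambda interferon receptor genes IFNLR1 and IL10RB had values of 0.25 and 0.15 that did not pass.

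The listed transcription factors that act at the ISRE went in both directions. IRF9 was counted 147.61 and 85.83 times in shCon and 377.03 and 358.54 times in shUBXN1 (log2 fold change 1.72, SE 0.177, adjusted p = 1.51e-06, edgeR). STAT2 went from 821.01 and 697.44 to 1728 and 1401 counts (1.10, SE 0.0899, adjusted p = 1.58e-07, edgeR). IRF1 (0.62, adjusted p = 6.29e-05) and IRF7 (0.43, adjusted p = 0.0289) rose less, IRF3 fell (-0.30, adjusted p = 0.00481), and IRF2 had a value of -0.04 that did not pass (adjusted p = 0.756), all by edgeR and named after their values were seen.

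Of the feedback inhibitors on the list of receptors and JAK-STAT genes, SOCS3 rose from 382 and 362 to 880 and 992 counts (1.39, SE 0.108, adjusted p = 9.89e-08, edgeR). SOCS1, 1 of the 12 higher genes, had 7 and 0 counts in shCon and 37 and 18 in shUBXN1. It passed the filter only through shUBXN1 and could be called only as higher, so its call is not read as a result. USP18, which removes ISG15 from proteins and dampens type I signalling, fell from 116.43 and 110.12 to 42.52 and 42.19 counts (-1.35, SE 0.260, adjusted p = 0.000499, edgeR). SOCS3 and USP18, both on this list, thus lay on opposite sides of 0.

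Other antiviral interferon-stimulated genes did not share 1 direction. Of 58 listed, 50 were tested, with 22 higher, 13 lower and 15 not past the threshold, beside 28.0% of all genes higher and 28.2% lower, and a median log2 fold change of 0.30. APOBEC3G, a cytidine deaminase that acts on retroviral DNA, rose from 12 and 19.10 to 121.30 and 126.64 counts (3.04, SE 0.334, adjusted p = 2.9e-06, edgeR). TAP1, which carries peptides to MHC class I, rose from 522.28 and 450.40 to 1422.09 and 1509.53 counts (1.65, SE 0.0901, adjusted p = 3.25e-09, edgeR). In contrast, GBP1, an interferon-inducible GTPase, fell from 183.20 and 173.05 to 41 and 56 counts (-1.81, SE 0.240, adjusted p = 1.79e-05, edgeR). IFI44, 1 of the 13 lower genes, had 15 and 21 counts in shCon and 1 and 3 in shUBXN1. It passed the filter only through shCon and could be called only as lower, so its call is not read as a result. At 2-fold, 7 of the 50 were higher and 3 were lower, near the 11.8% and 6.09% of all genes, and the log2 fold changes of IFITM1, IFITM2 and IFITM3 lay inside the range of these genes.

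Genes whose products bind or modify IFITM proteins were called about as often as all genes. Of 17 tested, 4 were higher, 5 were lower and 8 did not pass, beside 28.0% of all genes higher and 28.2% lower, and the median log2 fold change was -0.05. Without shCon replicate 2, 2 were higher. ZDHHC8, a palmitoyltransferase of the family that adds lipids to IFITM proteins, rose (0.66, SE 0.118, adjusted p = 0.000266, edgeR). CD81, a tetraspanin of the complexes in which IFITM1 is found, rose (0.63, SE 0.0940, adjusted p = 5.2e-05, edgeR). VCP, the ATPase that UBXN1 binds and that has been tied to the turnover of IFITM3, fell (-0.59, SE 0.0834, adjusted p = 3.2e-05, edgeR), from 18467.39 and 16331.19 to 10681.97 and 11441.37 counts. SETD7, a methyltransferase reported to modify IFITM3, fell (-0.51, SE 0.0756, adjusted p = 5.16e-05, edgeR). NEDD4, the ubiquitin ligase of IFITM3, had a value of -0.11 that did not pass (adjusted p = 0.240, edgeR).

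Genes with a start within 250 kb of an IFITM start were examined next. The table held 82 of them, of which 30 were tested, with 17 higher, 7 lower and 6 not past the threshold, a median log2 fold change of 0.75 and 12 higher by at least 2-fold. Over all genes tested the shares were 28.0% higher, 28.2% lower and 11.8% higher at 2-fold. The read-through annotation ENSG00000250644 is 1 of the 17 and of the 12. LSP1, KRTAP5-1 and KRTAP5-AS1, described below, are also among the 17 and the 12. They passed the filter on low counts only through shUBXN1, so they could be called only as higher. ENSG00000254910, ENSG00000251661 and SYT8 are among the 17 and the 12 as well. Their shCon libraries alone would not have passed the filter, so their calls rest on shUBXN1 too and are not read as results. Around IFITM1, IFITM2 and IFITM3, 10 of 20 tested genes were higher and 6 were lower. Without genes that share exon bases with a member, 9 of 19 were higher, ENSG00000251661 among them, and 6 were lower. PGGHG, a glycosidase gene upstream of IFITM2, rose from 435 and 343 to 1398 and 1016 counts (1.69, SE 0.121), and ANO9, an anoctamin gene, from 531.17 and 394 to 1883.17 and 1169.95 counts (1.78, SE 0.156). The other genes higher by at least 2-fold in this stretch were LRRC56, LMNTD2 (1.41), the lncRNA genes LMNTD2-AS1 (1.64) and ENSG00000251661 (1.68), and ENSG00000254910. PKP3, a desmosomal plakophilin gene that lies between PGGHG and ANO9, fell (-0.74, SE 0.0805), so higher and lower genes were interspersed along the stretch.

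Around IFITM10, 6 of 9 tested genes other than the read-through annotation were higher, 1 was lower and 2 did not pass, again beside 28.0% and 28.2% of all genes. The 3 neighbours with the largest changes, and SYT8, had low counts. Those 3 are among the 6, and having passed the filter only through shUBXN1 they could be called only as higher. SYT8 is also among the 6. Its shCon libraries alone would not have passed the filter, so its call is not read as a result. LSP1, which encodes an actin-binding protein of leukocytes, had 3 and 2.01 counts in shCon and 25 and 15.51 in shUBXN1. KRTAP5-1, a hair keratin-associated gene, had 2 and 6 against 26 and 18, KRTAP5-AS1 2.43 and 5 against 17 and 19, and the synaptotagmin gene SYT8 19 and 8 against 42 and 24. No neighbour reached the counts of IFITM10 together with a change of its size, as the plot against distance shows.

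**Figure D4:**
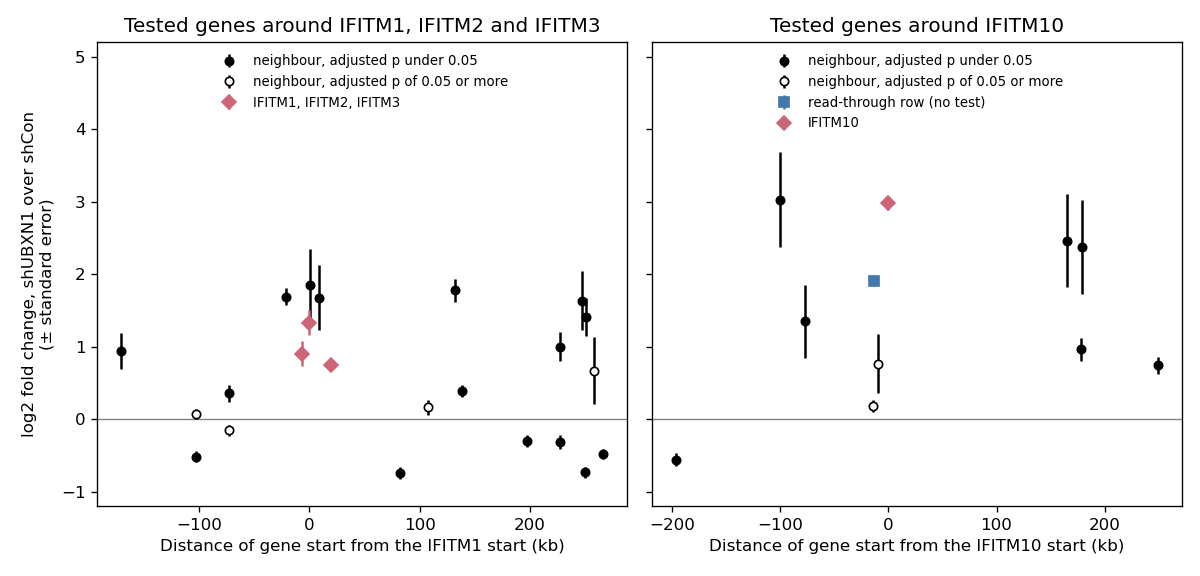
Log2 fold change with standard error of tested genes by distance in kb of their start from the IFITM1 start (left) or the IFITM10 start (right), with diamonds for IFITM genes, a square for the read-through gene ENSG00000250644, filled circles for an adjusted p under 0.05 and open circles for the rest. Genes above and below 0 are interspersed on the left, and IFITM10 and LSP1 are the highest points on the right.

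The protein-coding genes most like each member over log2(TPM + 0.1) in the 4 libraries were found by Euclidean distance among 13511 tested genes. For IFITM1 these were NRBP2 (distance 0.168), PLXNA3 (0.244) and SGSM2 (0.272), and for IFITM2 MOB2 (0.240), which lies within 250 kb of IFITM10, POFUT2 (0.256) and LZTS2 (0.315). For IFITM3 they were RNASEK (0.0671), SERINC3 (0.119) and PSMD2 (0.125), all at 233 to 245.7 TPM in shCon. For IFITM10 they were SMARCD3 (0.0831), FN3K and PSCA, the last at 0.344. Only 4 libraries in 2 groups define each pattern, so likeness here means a like level and a like change, and none of these genes is another IFITM gene or an interferon-stimulated gene of the list.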

How the data were processed

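Total RNA of MHCC97H cells was sequenced after mRNA library preparation, in 2 shCon and 2 shUBXN1 libraries grouped by their labels. The authors deposited unnormalized expected counts for each gene and the gene length used. The methods name GRCh38 and Hisat2, whereas the submitters' processing notes list GRCh37, HISAT2 2.0.4 and StringTie 1.3.0. The counting tool, the annotation release and the use of strand are not given in the sources used here. Of the gene IDs, 61369 (99.7%) matched GENCODE v44 on GRCh38.

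Expected counts were rounded, filtered with filterByExpr, scaled with TMM (factors 0.967 to 1.06) and tested by the quasi-likelihood F test of edgeR 4.0.16 (R 4.3.3), with Benjamini-Hochberg adjustment over 16863 genes. Standard errors were the log2 fold change over the square root of F. Replicates differed by more than sampling noise (chi-square per degree of freedom 3.83 and 8.42), so none was a copy. The test was checked on simulated counts in which 200 of 16863 genes were changed and every gene had the same spread. It recovered 183 of them, with 5 false calls. In the data 56.2% of genes were called, so the check does not cover a setting in which so many genes change.

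The members and lists were chosen with earlier results of these data known. Named genes were the members, genes sharing their exons, other IFITM genes with counts, the 4 largest called changes per list, receptors, STAT2, IRF9, neighbours called at 2-fold and the 3 most alike genes. Alternatives were DESeq2 1.42.0, limma 3.58.1 (voom, and log2(TPM + 1), the study naming limma and TPM but no pseudocount), total count scaling, other filters, a replicate block and leaving out each library. A GC correction and sums over the read-through gene were added after seeing the data. CPM and TPM were computed from the deposited values. Counting error and replicate spread enter the standard errors, and 2 libraries per group limit how well the spread is known. Some genes that the rule covers are not reported here.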

Additional observations from a re-analysis of the deposited data

How the results depend on the processing

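IFITM1, IFITM2 and IFITM3 kept their direction and passed the threshold in all 12 alternatives run for each, with log2 fold changes of 1.15 to 1.47, 0.68 to 1.14 and 0.67 to 0.84, and adjusted p of at most 0.000769, 0.0029 and 7.64e-05. IFITM10 stood at 3.07 with total count scaling, 2.80 with limma on log2(TPM + 1), 2.85 with the GC trend removed, 1.99 summed with its read-through gene and 0.65 with CTSD added as well. Total count scaling moved the median of all genes from 0.02 to 0.10. At 2-fold, genes higher numbered 1028 with limma on log2(TPM + 1) and 1321 with at least 10 counts in every library, and genes lower 524 with limma. JAK-STAT genes that were lower numbered 4 with total count scaling and 2 with limma on log2(TPM + 1). Leaving out each library gave IFITM1 1.15 to 1.47, IFITM2 0.68 to 1.14, IFITM3 0.67 to 0.81, IFITM10 2.92 to 3.03, 1738 to 2021 genes higher and 985 to 1146 lower at 2-fold, 4 to 7 JAK-STAT genes lower (4 without shCon replicate 1, and 4 without shCon replicate 2) and 2 to 5 IFITM partner genes higher (2 without shCon replicate 2). Where a group was left with 1 library, it was assumed to vary like the other. By CPM in place of TPM, which favours long genes, IFITM10 took 9.78% of the family in shCon and 32.9% in shUBXN1, and IFITM3 77.7% and 55.7%. Replicate numbers are shared between groups, and deviations of same-numbered libraries correlated at 0.0965. With 2 pairs this cannot show whether libraries of the same number were prepared together. With the replicate block the log2 fold changes were 1.32, 0.91, 0.75 and 2.98 for IFITM1, IFITM2, IFITM3 and IFITM10. The causes of these differences were not tested, apart from the sums, which follow from their construction. Low counts of interferon ligands and the other IFITM genes limit what can be seen of them.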

Other observations

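PRADX, a lncRNA gene antisense to CTSD that starts within the span of CTSD, upstream of IFITM10, was named after its values were seen. It had 24.11 and 20.27 counts in shCon and 37.46 and 34.96 in shUBXN1, a log2 fold change of 0.77 (SE 0.402) that did not pass the test (adjusted p = 0.119, edgeR). It shares 1331 exon bases with CTSD and 150 with ENSG00000250644 on the opposite strand. Without strand, reads within these shared bases cannot be assigned to PRADX or to those genes.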
